A study of Mus musculus with 6 samples.

Results

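A set of 4431 cytosine positions had a methylation level between 40% and 65% in each of the 6 libraries of Apc Min mouse intestinal organoids. They were chosen by that rule alone from the part of the table in which the 6 libraries line up (47.9% of 813850 rows), and they make up 1.63% of the 272327 positions there with a value in every library (called complete positions below). The study grew intestinal organoids, labelled as primary cells, from Apc Min mice in organoid medium with low glutamine. The labels used here give no strain, age, dose or time. The control group has 3 libraries and the group given DM-aKG, a cell-permeable ester of α-ketoglutarate, has 3 libraries, and both groups carry the Apc Min allele and had the low-glutamine medium. DNA methylation was read by reduced representation bisulfite sequencing, which samples CpG-rich fragments and reports, for each cytosine, the percent of reads that kept it unconverted.

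Most CpG positions in differentiated mouse cells are either mostly methylated or mostly unmethylated. A level near the middle can arise when the maternal and paternal copies differ, as at imprinted genes, where a control region keeps the methylation mark of only 1 parent and the mark directs which copy is transcribed. It can also arise when cells of a culture differ from each other or when near-identical repeat copies are read as 1 place, and a percent of pooled reads does not tell these apart. DNA methylation gives no marker expression, so the labelled tissue could not be checked against marker genes.

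The promoters that carried the most chosen positions belong to imprinted genes, and 4 of them are printed here to show their intermediate cytosines in front of the start site. The promoters of Commd1 and Hymai also held 4 chosen positions each and are not printed. Each is the 250 bases before the RefSeq start on GRCm38.p6, written 5′ to 3′ on the strand of the gene, with capitals on the bases of chosen positions. The Mcts2 window is chr2:152686898-152687147 on the plus strand, the Igf2r window is chr17:12769707-12769956 on the minus strand, the Plagl1 window is chr10:13090582-13090831 on the plus strand and the Zrsr1 window is chr11:22971755-22972004 on the plus strand.
Mcts2: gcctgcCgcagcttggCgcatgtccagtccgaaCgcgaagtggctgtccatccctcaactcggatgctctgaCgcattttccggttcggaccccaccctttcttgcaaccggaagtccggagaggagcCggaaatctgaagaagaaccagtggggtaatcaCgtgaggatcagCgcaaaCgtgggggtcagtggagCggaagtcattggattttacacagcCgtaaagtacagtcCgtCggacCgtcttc
Igf2r: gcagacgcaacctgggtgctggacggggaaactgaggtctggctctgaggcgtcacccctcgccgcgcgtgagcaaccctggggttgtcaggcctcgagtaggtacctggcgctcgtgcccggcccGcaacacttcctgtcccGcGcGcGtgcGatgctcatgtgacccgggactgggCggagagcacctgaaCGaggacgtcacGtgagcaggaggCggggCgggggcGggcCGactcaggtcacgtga
Plagl1: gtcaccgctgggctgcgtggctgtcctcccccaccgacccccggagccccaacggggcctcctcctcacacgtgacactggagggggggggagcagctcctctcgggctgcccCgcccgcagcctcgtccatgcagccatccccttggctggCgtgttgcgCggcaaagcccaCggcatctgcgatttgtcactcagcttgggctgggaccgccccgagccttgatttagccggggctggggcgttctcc
Zrsr1: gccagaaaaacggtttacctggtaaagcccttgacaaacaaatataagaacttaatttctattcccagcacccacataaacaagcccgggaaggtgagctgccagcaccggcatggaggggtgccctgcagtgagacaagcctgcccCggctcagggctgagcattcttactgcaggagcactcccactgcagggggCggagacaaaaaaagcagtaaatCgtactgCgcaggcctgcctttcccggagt
In the Mcts2 window, 13 of 18 complete positions were chosen, and the window holds 20 CpG. The Igf2r window had 15 of 20, with 27 CpG, the Plagl1 window had 4 of 4, with 19 CpG, and the Zrsr1 window had 4 of 5, with 8 CpG. The rows of these windows, complete or not, numbered 31 at Mcts2, 30 at Igf2r, 25 at Plagl1 and 8 at Zrsr1. Rows with a 0 in some library are not complete, so these shares do not describe the whole window. A capital G is the cytosine of the opposite strand. The hexamer TGCCGC, to which the zinc-finger protein ZFP57 binds when it is methylated, was searched on both strands. It occurs 1 time in the Mcts2 window on the strand printed and 1 time in the Plagl1 window on the opposite strand, and both occurrences hold a chosen cytosine. The Igf2r and Zrsr1 windows do not have these letters. Of 32851 RefSeq windows of the same length, 8.68% hold the hexamer, and of the 6482 with at least 19 CpG, 24.0% do. Among all such windows on the chromosomes covered, 42 held at least 1 chosen position and 8 held at least 3. Those 8 include Bcl6, with 3 of 11 complete positions chosen, and Pkn3, with 3 of 5, which are not on the imprinted list. The Pkn3 window also holds the hexamer 1 time, on the opposite strand, with a chosen cytosine in it. Both genes were named after their values were seen.

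The mean level of the 4431 positions had a median of 52.7%, with quartiles of 50% and 55.3% and a range from 41.3% to 63.5%, while the median over all complete positions was 92.5%. The window fixes these levels, so they describe the choice and carry no test. Within a position, the SD over the 6 libraries had a median of 5.85 percentage points, beside 5.31 over all complete positions, and the gap between the highest and the lowest library had a median of 15 points. "Stable" here means only that the level stayed inside the window. The window caps the SD of the chosen positions, and most complete positions had higher levels. Whether the chosen positions varied less than others of like level was not tested. The exact value 50% made up 5.40% of the values, 1219 positions had it in at least 1 library, and 0 had it in all 6. The file gives no coverage, so the depth behind each percent is unknown and no interval from read counts can be given.

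Mean levels over the chosen positions were 51.6%, 52.4% and 52.4% in control replicates 1 to 3 and 52.9%, 53.1% and 53.6% in DM-aKG replicates 1 to 3. Each DM-aKG library was above each control library. The group means were 52.1% ± 0.467 (SD, n = 3) and 53.2% ± 0.351 (SD, n = 3), a difference of 1.05 points, which the window bounds and which was not tested.

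How far the choice holds in a library it did not use was read by leaving each library out in turn. Among complete positions inside the window in the other 5 libraries, the library left out was also inside it for 77.7% in control replicate 1, 91.1% in control replicate 2 and 89.1% in control replicate 3. For DM-aKG replicates 1 to 3 the shares were 87.7%, 88.1% and 72.8%. Over all complete positions, between 7.42% and 12.1% of values of a library lay in the window. Control replicate 1 and DM-aKG replicate 3 left the window most often, and they have the lowest and the highest mean level over all complete positions. The exits counted in this way were upward, because the table has no value between 0 and 40. In all, 5118 positions had 5 libraries in the window and 1 above it, and 5210 had 5 in the window and 1 listed at 0, where a 0 can be a low level or a missing one. At the upper edge, 2486 chosen positions had their highest value from 61% to 65% and a mean of 54.7%, and 3971 positions outside had it from 66% to 70% and a mean of 58.6%. At the lower edge, 599 of the chosen positions (13.5%) had a lowest value of exactly 40%.

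Choosing in 1 group and reading in the other gave an asymmetric picture. In the 3 control libraries 9341 complete positions lay in the window, and 47.4% of them did so in all 3 DM-aKG libraries, where their mean was 59.4% after 53.6% in the controls. In the 3 DM-aKG libraries 7701 lay in the window, 57.5% of them also in all 3 control libraries, with a mean of 56.9% after 54.1%. In both directions the mean was higher in the libraries that were not used for the choice, where the window sets no upper limit and the table holds no level under 40.

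Both strands of a CpG are separate rows, 1 base apart, and give a comparison of neighbouring values that the rule treated separately. Of the chosen positions, 1660 had a complete strand partner, and 588 of those partners (35.4%) were chosen too, beside 0.813% of all paired positions. The partners' mean levels had a median of 57.7%, and 76.9% of them had a mean from 40% to 65%, beside 4.05% of all paired positions. Partners and close neighbours can be read from the same fragments or molecules, so they are not independent observations.

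Clustering along the genome was strongest at the shortest distances. At 1 base from the nearest chosen position, 35.3% of complete positions were chosen themselves. From 2 to 10 bases the share was 8.58%, from 11 to 50 bases 3.58%, from 51 to 100 bases 2.56%, over 100 and up to 200 bases 2.30% and over 200 and up to 500 bases 1.15%, close to the 1.19% found beyond 50000 bases. The level of positions that were not chosen followed the same distances, with a mean of 64.4% at 1 base, 82.8% from 2 to 10 bases and 89.3% beyond 50000 bases. Another chosen position lay within 100 bases for 28.4% of them, beside 7.37% of all complete positions. Most, however, stood by themselves, and the median distance to the nearest other was 15472 bases.

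**Figure D1:**
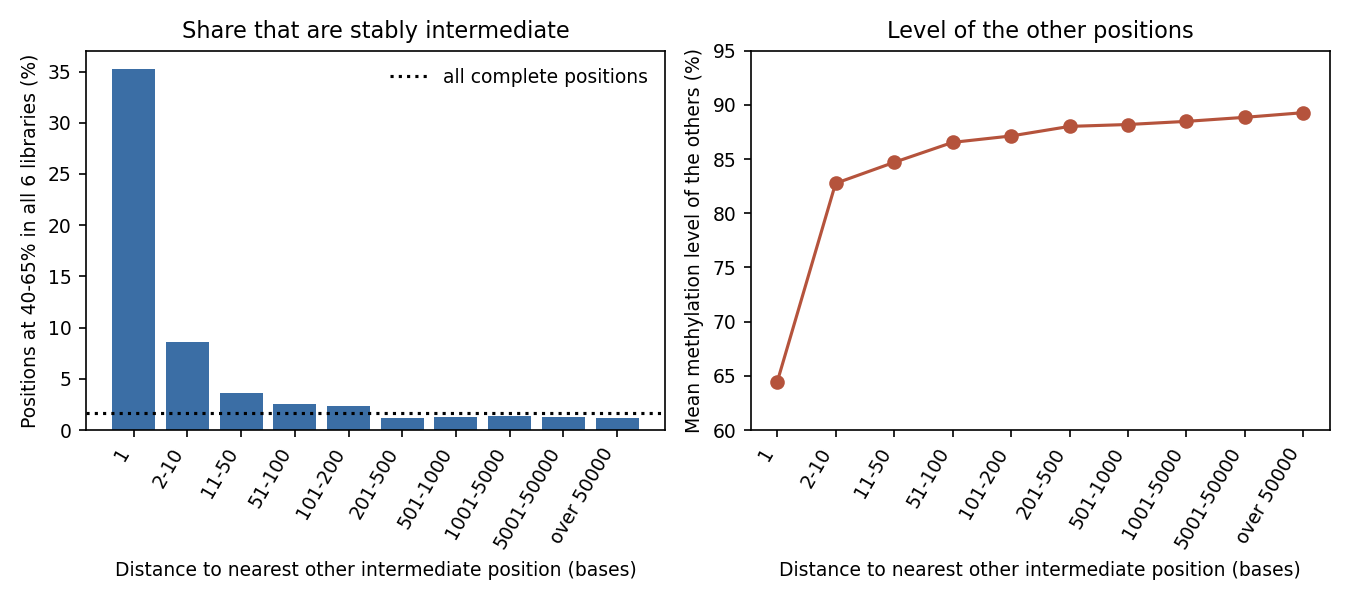
Share of complete positions that belong to the chosen set (percent, left, bars) and mean level of the remaining positions (percent, right, points; the axis does not start at 0) by distance in bases to the nearest chosen position. The share goes from 35.3% at 1 base to 1.15% over 200 and up to 500 bases, and the level of the rest from 64.4% at 1 base to 89.3% beyond 50000 bases.

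Runs with gaps of at most 200 bases numbered 3578, and 2995 positions were alone in theirs. Runs with at least 3 chosen positions, called clusters here, numbered 129 and held 528 positions (11.9%), with 86 clusters of 3, 25 of 4 and 18 of at least 5. Among pairs of consecutive chosen positions 2 to 50 bases apart, of which there were 307, the median difference in a library was 5 points and 2 pairs had equal values in all 6 libraries. Positions that were alone had library means of 51.6%, 52.5% and 52.5% in the controls and 52.9%, 53.2% and 53.6% with DM-aKG, and those in clusters 51.4%, 52.0% and 51.7% and 52.9%, 53.2% and 52.5%. The means of lone and clustered positions were farthest apart in DM-aKG replicate 3.

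Imprinted genes held the largest of these clusters: 7 of the 15 with the most chosen positions lay within 1000 bases of a gene on a list of known imprinted regions, and 17 of all 129 did. Over the list of 24 genes, 135 of 864 complete positions (15.6%) were chosen, against 1.63% of all complete positions, and 17 of the 24 genes had at least 1. Several of these genes overlap, so counts given per gene can share positions. The total of 135 counts each position 1 time. Per library the 135 positions averaged 52.1%, 51.7% and 49.2% in the controls and 52.6%, 54.2% and 51.3% with DM-aKG, and the groups overlapped.

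The largest cluster, of 20 chosen among 29 complete positions, lay at chr2:152686873-152687141 (coordinates on mm10), ending 7 bases before the start of Mcts2. Mcts2 is a paternally expressed retrogene inside an intron of H13, whose transcript ends depend on the parental copy. Its means were 54.2%, 54.6% and 45.9% in control replicates 1 to 3 and 49.3%, 56.1% and 53.6% in DM-aKG replicates 1 to 3. Control replicate 3 was the lowest and the groups overlapped. The steadiest of its positions, 152687077, read 57%, 57% and 49% in the controls and 54%, 55% and 55% with DM-aKG. The 9 complete positions of the cluster that were not chosen had a mean of 53.9%, and each exceeded 65% in control replicate 1 only, where they averaged 73.6%.

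At Plagl1, a maternally imprinted zinc-finger gene whose first exon shares its start region with the non-coding RNA Hymai, 19 of 36 complete positions at chr10:13090695-13091128 were chosen. The cluster spans the Plagl1 start at 13090832. Its means were 53%, 44.5% and 50.3% in the controls and 52.7%, 55.2% and 54.5% with DM-aKG, and control replicate 1 lay within the range of the DM-aKG libraries. The 17 other complete positions averaged 59.6%, and 16 of them were above 65% in control replicate 1. In DM-aKG replicates 1 to 3, 7, 2 and 6 of them were above 65%.

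Igf2r, the receptor that clears insulin-like growth factor 2, and Airn, the antisense RNA that silences its paternal copy, are read from opposite strands of the same region. A cluster of 18 of 23 complete positions at chr17:12769700-12769830 covers the Igf2r start at 12769706. Its means were 54.9%, 58.3% and 46.2% in the controls and 54.0%, 55.6% and 49.6% with DM-aKG. Control replicate 2 was the highest and control replicate 3 the lowest, and the means of the groups gave a difference (DM-aKG minus control) of -0.0556 points. Within 1000 bases of the Igf2r start, 23 of 89 rows were complete, and 57 rows were at 0 in 3 or more libraries. The promoter of Airn itself gave 18 rows within 1000 bases of its start, and 0 of them were complete.

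Grb10, an adaptor protein that restrains growth and is expressed from different parental copies in different tissues, had 18 of 86 complete positions in the set. Of these, 14 of 18 complete positions formed 1 cluster at chr11:12026223-12026332, 1639 bases inside the gene from an annotated start at 12027971. Its means were 49.6%, 46.9% and 45.5% in the controls and 49.6%, 52.4% and 48.1% with DM-aKG. Position 12026312 there was among the least variable, with 47%, 46% and 45% in the controls and 51%, 51% and 49% with DM-aKG. The groups overlapped over the cluster but not at that position, where DM-aKG was higher. In a second Grb10 cluster, 3 of 4 complete positions at chr11:12025871-12025888, the means were 58.7%, 55.3% and 53.7% in the controls and 49.3%, 50% and 52% with DM-aKG, so that all DM-aKG libraries were lower. All 86 complete positions averaged 62.6%.

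Gnas, the locus of the stimulatory G protein α subunit with several promoters of different imprinting, had 440 rows, of which 114 were complete. Of these 114 positions, 25 were chosen, 23 of them in 5 clusters. In the largest, at chr2:174328397-174328465 and 629 bases past a start at 174327768, all 7 complete positions were chosen. Its means were 44.1%, 57.4% and 45.3% in the controls and 51.4%, 57.9% and 54.4% with DM-aKG. In a second, at chr2:174300404-174300463, all 5 were chosen, with 47%, 53% and 46.4% in the controls and 56.8%, 46% and 55.2% with DM-aKG. The antisense RNA Gnasas1, also called Nespas, had 3 of 6. The groups overlapped in both Gnas clusters.

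Zrsr1, a paternally expressed splicing-factor retrogene, lies inside Commd1, a regulator of copper and of membrane traffic, and the pair shared 13 chosen of 27 complete positions. Without control replicate 3 the count at Zrsr1 was 21. A cluster in which all 6 complete positions were chosen, at chr11:22972845-22972989, read 47.8%, 40.3% and 51.7% in the controls and 58.2%, 52.7% and 48.7% with DM-aKG. Its span had 24 rows, 75% of them with a 0 in some library and so not complete. Peg13, a non-coding RNA within an intron of Trappc9, had 8 of 15 complete positions, and its largest cluster, 5 of 8 at chr15:72809700-72809891, read 56.6%, 57.4% and 52.4% in the controls and 55.6%, 54% and 49.6% with DM-aKG. Trappc9, a trafficking-complex subunit with a much longer span, had 10 of 192. In the printed clusters of Zrsr1 and Peg13 the groups overlapped.

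Fewer positions were found at the remaining imprinted genes that had any. Zdbf2 had 6 of 35, the overlapping pair Nnat and Blcap had the same 3 (of 48 and of 58 complete positions; 6 at Nnat without control replicate 1), and Rian, a non-coding RNA of the Dlk1 region, had 2 of 15. Of the genes imprinted in some tissues only, Pde10a had 7 of 147, Begain 3 of 130 and Phactr2 1 of 57, and the list as a whole had 11 of 961 (1.14%). Among imprinted genes with none were Gpr1 with 17 complete positions, Dlk1 with 10, Meg3 with 37, Rtl1 with 44, Slc38a4 with 22, Impact with 16 and Mirg with 1. Meg3 averaged 90.0% over the 37 complete of its 72 rows and Impact 96.3% over 16 of 54, and these means leave out rows with a 0. Within 1000 bases of the Meg3 start at 109540996, 2 of 22 rows were complete, with a mean of 60.25%. There, 13 rows were at 0 in 3 or more libraries. At another Meg3 start, 109545398, 12 of 15 rows were complete, with a mean of 89.7%. The interval from Dlk1 to Meg3, chr12:109463336-109540996, gave 46 rows, of which 22 were complete with a mean of 89.6% and 0 were chosen.

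**Figure D2:**
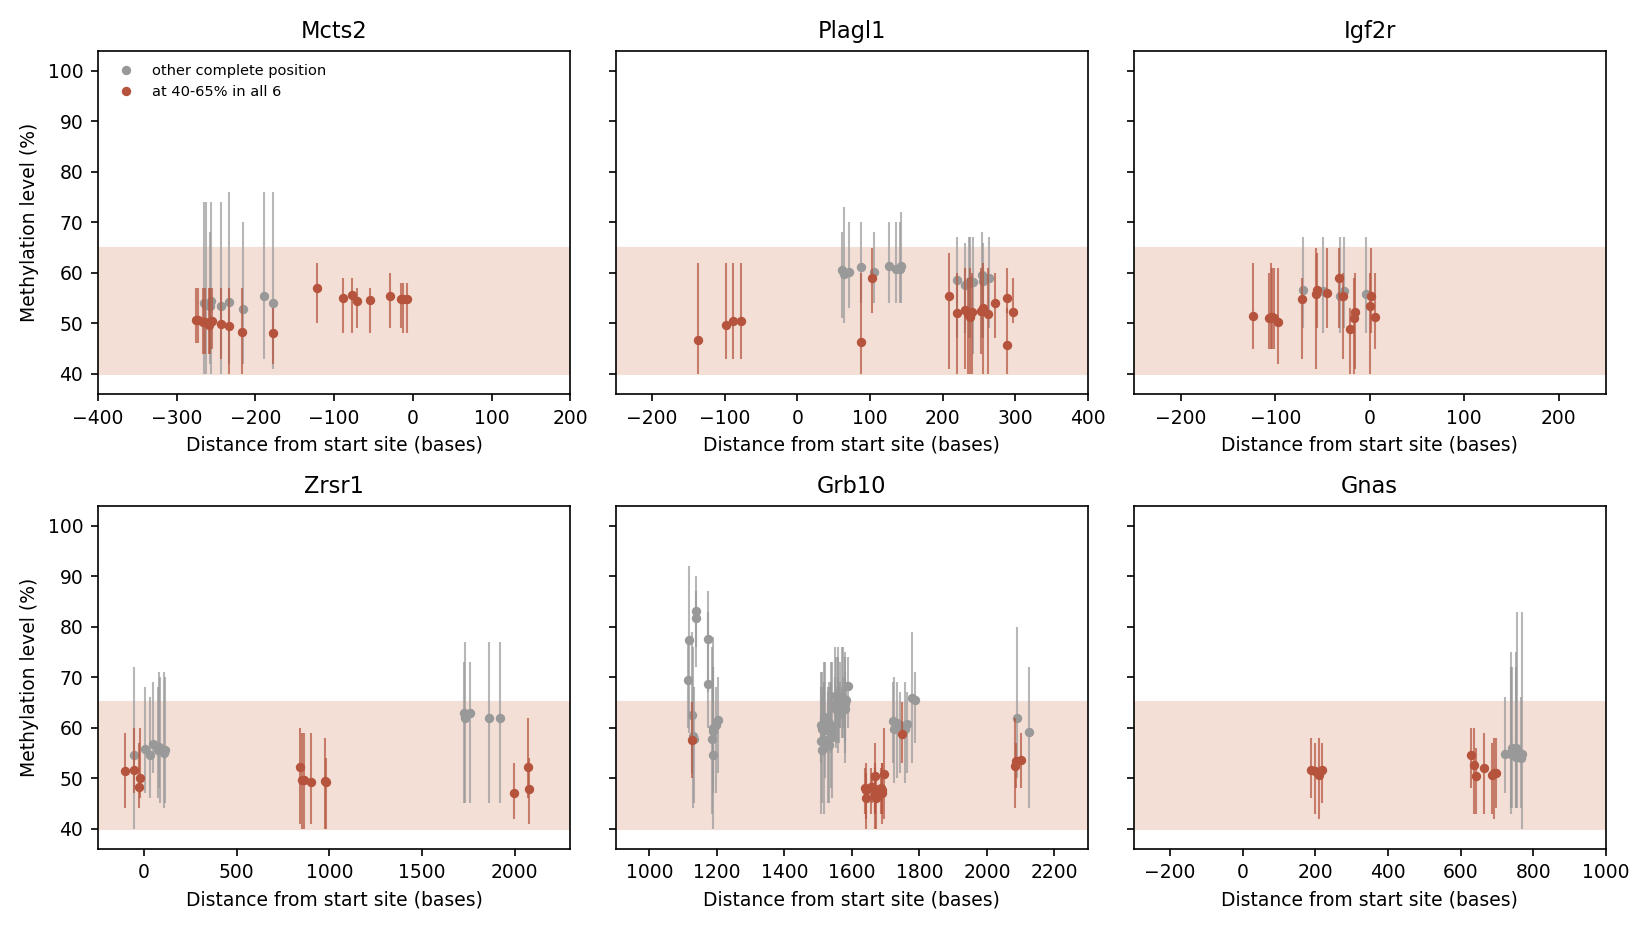
Methylation level (percent) of complete positions by distance in bases from a start site at 6 imprinted loci, with a point for the mean over the 6 libraries, a line from the lowest to the highest library and a band for 40% to 65%. Chosen positions are red, and the 9 other positions of the Mcts2 cluster (grey) have means inside the band and lines that reach above it.

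Clusters away from imprinted genes differed in makeup. In the 17 clusters at imprinted genes a median of 80% of complete positions were chosen, against 63.3% in the rest, and a median of 40% of all table rows in the span had a 0 in at least 1 library, against 20% in the rest and 30.2% of all rows used. The mean of DM-aKG was below that of the controls in 7 of the 17 and in 39 of the others, with differences from -5.44 to 6.56 points and from -7.5 to 8.25 points.

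The unit of ribosomal RNA genes annotated at Rn18s-rs5 on chromosome 17 held chosen positions in a dense group. Within 2500 bases of that gene, 48 of 121 complete positions (39.7%) were chosen. They fall in 7 clusters, 1 of which extends past that limit, and some reach into the non-coding gene AY036118 (12 of 48 complete positions, 25%). These genes exist in many tandem copies, so reads from different copies cannot be told apart here. In the largest, 15 of 20 complete positions at chr17:39845744-39846417, the means were 41.7%, 53.7% and 54.5% in the controls and 57.3%, 55.7% and 53.4% with DM-aKG. Over the 48 positions control replicate 1 averaged 44.6%, and the other 5 libraries lay between 53.1% and 56.2%. The group difference of 4.62 points came with 1 low control library. In the smaller cluster at chr17:39844873-39844894, where all 5 complete positions were chosen, the controls read 43.4%, 53.2% and 52.2% and the DM-aKG libraries 54.8%, 54.8% and 54.6%, without overlap.

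Other clusters of at least 5 were scattered. A cluster of 9 of 13 at chr18:80169598-80169943, 6084 bases from the predicted gene Gm7447, read 58.6%, 55.4% and 53.3% in the controls and 49.2%, 53.1% and 47.9% with DM-aKG. All 3 DM-aKG libraries were below all 3 controls there, and the DM-aKG mean minus the control mean was -5.70 points. Neither this separation nor those named at Grb10 and Rn18s-rs5 was tested. Smaller clusters were separated too, such as Gm28068 with DM-aKG lower and AY036118 with DM-aKG higher. Among single complete positions, the groups did not overlap at 4.63% with DM-aKG higher and at 2.5% with DM-aKG lower. Rbm46, an RNA-binding protein of germ cells, had 9 of 32 at chr3:82876002-82876267, starting 216 bases inside the gene, with means from 52.6% to 55.6% in the 6 libraries. The non-coding genes 1700030C10Rik and 5730507C01Rik, both on chromosome 12, had clusters of 6 of 16 and 5 of 7. 1700030C10Rik also ranked among the genes with the highest share, with 7 of 31 (22.6%). Tmprss9, a membrane serine protease, had 5 of 12 and Rab11fip3, an endosome recycling protein, had 5 of 16. Of the clusters of 4, the one in Gpa33, an antigen of the intestinal epithelium, had all of its 4 complete positions chosen, with 52.3%, 49.3% and 57.8% in the controls and 50.8%, 51.3% and 51% with DM-aKG. Gm28068, Gpa33, Tmprss9 and Rab11fip3 were singled out after their values were seen.

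**Figure D3:**
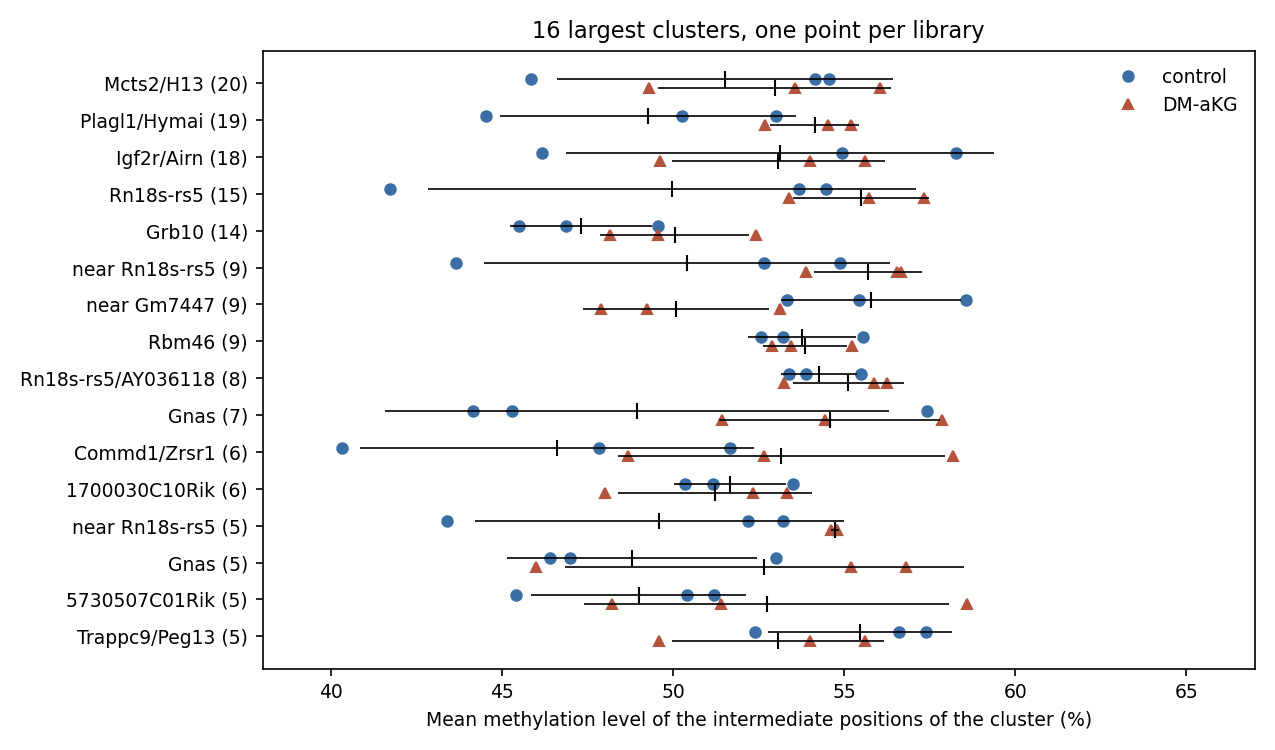
Mean level (percent) of the chosen positions of the 16 largest clusters, with 1 point per library, a tick for the group mean, a line for 1 SD to either side (n = 3) and the number of chosen positions in brackets. Control and DM-aKG points overlap in all but 2 of the 16. Those are near Gm7447 with DM-aKG lower and in the 5 positions near Rn18s-rs5 with DM-aKG higher. Neither separation was tested. The points include a low control library (41.7%) in the largest Rn18s-rs5 cluster.

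By share of complete positions, the 10 leading genes with at least 20 complete positions were Mcts2 (69.0%), Airn (65.5%), Plagl1 and Hymai (52.8% each), Commd1 and Zrsr1 (48.1% each), Igf2r (28.1%), AY036118, 1700030C10Rik and Gnas (21.9%). Of the 3814 genes of that coverage, 8 of these 10 are on the imprinted list, but several of them share positions. Plagl1 and Hymai had the same 19 of 36, and Commd1 and Zrsr1 the same 13 of 27. The 19 chosen positions of Airn include the 18 of Igf2r. These genes are therefore not separate observations.

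Clustered protocadherins, cell-adhesion genes on chromosome 18 from which each neuron expresses a random few, had 42 of 749 complete positions (5.61%). The share was 2.76% in the α cluster, 9.09% in the β cluster and 5.65% in the γ cluster, whose overlapping spans let Pcdhga1 count 24 of 425 and Pcdhga2 20 of 410. Their library means were 49.6%, 53.2% and 52.1% in the controls and 53.2%, 53.9% and 53.6% with DM-aKG. DM-aKG replicate 1 and control replicate 2 had equal means. Olfactory receptors had 0 of 202, and vomeronasal receptors had 2 (1.98%), both among the 5 complete positions of Vmn2r1. Major histocompatibility genes had 4 of 126 (3.17%), at H2-DMa and H2-Q1, with 2 each.

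The remaining lists ranged from 0 to 7.06%. Zfp zinc-finger genes had 38 of 2606 (1.46%), led by Zfp385c with 5 and Zfp335 with 3. Keratin genes, which encode the intermediate filaments of epithelia, had 14 of 570 (2.46%), led by Krt10 with 3 of 13 and Krt27 with 2 of 28. Histone genes had 0 of 95. Stem-cell genes and Wnt targets had 2 of 354 (0.565%), 1 at the Wnt feedback gene Axin2 and 1 at Tcf7, a Wnt transcription factor. Enterocyte and secretory-cell genes had 5 of 245 (2.04%), with 2 at the lactase gene Lct and 2 at Vil1, which encodes the brush-border protein villin. Markers of other cells that a culture could hold had few complete positions. Immune genes had 6 of 85 (7.06%), 3 of them at Ptprc, the pan-leukocyte antigen CD45, and 2 at Cd247, a T-cell receptor chain. Fibroblast collagens Col1a1 and Col3a1 had 1 each (2 of 34 on their list), and the endothelial gene Pecam1 had 2 of 58. The part of other cells in these levels was not tested.

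**Figure D4:**
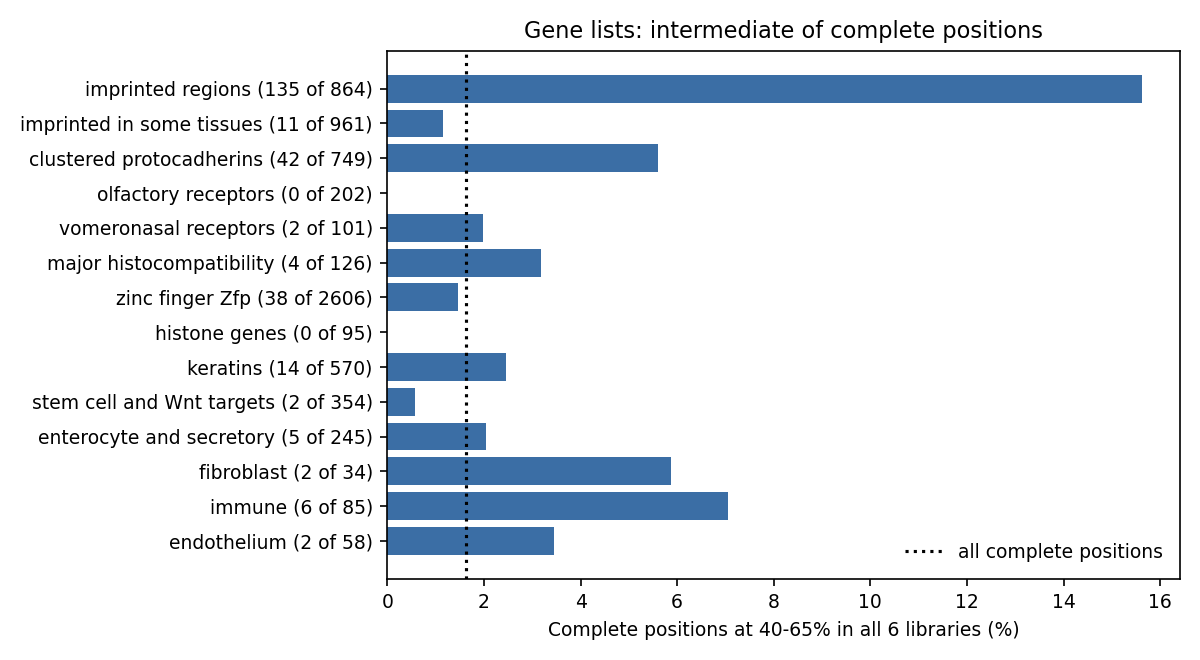
Share of complete positions that were chosen (percent, bars from 0) for each gene list, with the share over all complete positions, 1.63%, as a line. Imprinted regions stand at 15.6%, protocadherins at 5.61% and olfactory receptors at 0.

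In gene context, the chosen positions lay nearer to gene ends than complete positions at large. Within 1000 bases of a gene's start or end were 17.96% of them, against 11.9% of all complete positions. Inside a gene span were 63.4%, against 71.3%, and outside genes 18.7%, against 16.8%. RefSeq promoter windows, taken here from 250 bases before to 50 bases after the start, held 102. That is 2.44% of the chosen positions on chromosomes in the promoter table, against 1.01% of complete positions there. Chosen positions had fewer complete neighbours, with a median of 4 others within 100 bases against 6, and 12.6% had 0 others, against 5.29% of all complete positions. Every covered chromosome held some, from 1.35% of complete positions on chromosome 16 to 1.85% on chromosome 2. Of 10331 genes with a complete position, 2432 (23.5%) had at least 1 chosen position, so most were spread thinly.

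**Figure D5:**
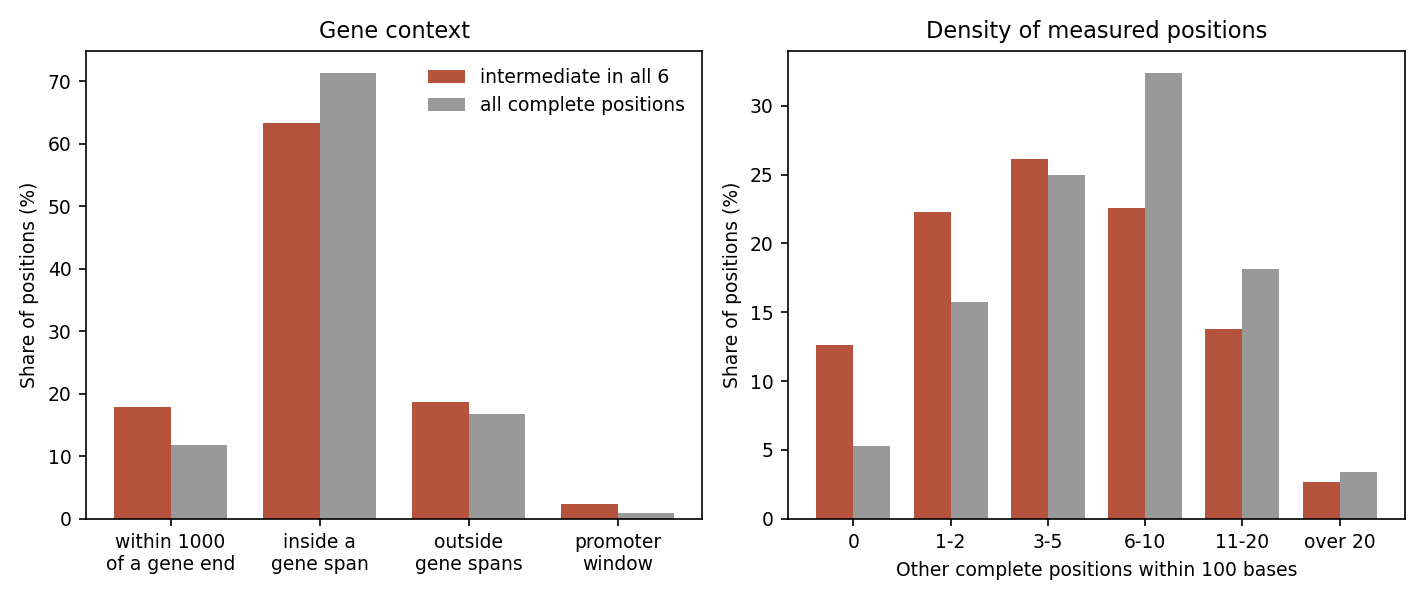
Share (percent, bars from 0) of chosen positions and of all complete positions in each gene context and by number of complete neighbours within 100 bases. Positions within 1000 bases of a gene end make up 17.96% of the chosen set and 11.9% of all complete positions.

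Between DM-aKG and control, 0 of the 4431 positions passed limma's test on log2 odds with Benjamini-Hochberg adjustment under 0.05, against 0.149% (407) of all 272327 complete positions, a count that fell to 0 under other settings. The smallest adjusted p of a chosen position in limma was 0.418. At an unadjusted limma p under 0.05, 82 (1.85% of the set) were below the threshold, 52 with the DM-aKG mean higher and 30 with it lower. Of all complete positions, 3.31% were below it with DM-aKG higher and a further 1.93% with DM-aKG lower. The share of the set over both directions was thus under the background of either direction alone. The groups did not overlap, with DM-aKG higher, at 255 positions (5.75%, background 4.63%), and with DM-aKG lower at 119 (2.69%, background 2.5%). The rule limited any difference at these positions to 25 points, and the largest seen were a rise of 17.7 points and a fall of -18 points, so nothing is read from these counts.

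The positions around them offered a comparison that the rule did not use directly. The 18803 complete positions within 100 bases of a chosen one, not chosen themselves, averaged 83.1%, 83.8% and 84.0% in control replicates 1 to 3 and 84.4%, 84.5% and 85.0% in DM-aKG replicates 1 to 3. All DM-aKG libraries were above all controls, by 1.002 points (exact two-sided permutation test, p = 0.1, the smallest that 3 libraries against 3 allow). When every position with a value in the library was taken, the difference was 0.317 points (exact permutation p = 0.4). The 249093 positions farther away differed by 1.05 points (exact permutation p = 0.1), so the neighbours moved by about as much as the rest. The labels do not say whether replicates came from separate animals, so these p-values measure only the spread between libraries.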

How the data were processed

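The deposited table gives 1 percent of methylation per cytosine in each library, as whole numbers, for 813850 rows. Per the submitters' processing notes the listed software was CASAVA 1.8 and Novoalign 3.08.02, with no role stated, and the assembly was mm10. Neither the methylation caller nor a coverage minimum is given in the sources used here. Values from 1 to 39 do not occur, and a 0 (under 40% or no call) was treated as no value. From row 390209 on, control replicates 1 and 2 correlate with the other 4 libraries at -0.00376 to 0.00247, against 0.598 to 0.770 before it, so rows up to 390208 were used. They cover chromosomes 1, 10 to 19, 2 and the first part of 3.

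The start column was read as counting from 1, since 99.9% of 4478 positions in RefSeq promoter windows then fell on a CpG, against 55.4% counting from 0. Gene spans, promoter sequences and start sites are from RefSeq GRCm38.p6, whose promoter table has no entry for chromosome 18. Positions were compared with limma 3.58.1 (R 4.3.3) on log2 odds (offset 0.01) over all complete positions without a replicate block, and library means with an exact permutation test (scipy 1.17.1). Scripts were tested on simulated data.

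Named genes were imprinted genes with a chosen position, genes at the 15 largest clusters, the 10 genes with the highest share, and the leading 2 genes per other list. The positions and lists were chosen with earlier results of these data known. Alternatives were other windows, gaps, flanks and cluster sizes, merged strands, all rows, other limma settings and leaving out each library.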

Additional observations from a re-analysis of the deposited data

How the results depend on the processing

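Counts depended on the window, the flank and the cluster size. A window of 40% to 60% gave 1945 positions, 34 clusters and 88 positions at imprinted genes, 45% to 65% gave 2021, 20 and 56, and 40% to 70% gave 8402, 396 and 207. Of the 15 largest clusters 7, 3 and 7 then lay at imprinted genes. The share within 1000 bases of a gene end was 16.6% for 45% to 65% and 16.8% for 40% to 70%. With flanks of 500 and 2000 bases it was 10.1% and 28.8%, beside 6.204% and 21.3% of all complete positions. Merging the strands of a CpG left 67 clusters, with 7 of the 15 largest at imprinted genes, and a minimum of 5 positions left 18 clusters. Leaving out 1 library at a time gave 4866 to 6085 positions, 155 to 212 clusters (212 without control replicate 1, 203 without DM-aKG replicate 3), 141 to 159 positions at imprinted genes and a share near gene ends of 16.8% to 18.7%, with 6 or 7 of the 15 largest clusters at imprinted genes. Counts at single loci followed: Zrsr1 had 3 with 45% to 65% and 21 without control replicate 3, Plagl1 had 4 with 45% to 65% and 34 with 40% to 70%, Grb10 had 5 and 45 with the same windows, and Nnat had 0 with 40% to 60% and 6 without control replicate 1.

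No chosen position passed limma's threshold under any alternative run, though calls over all complete positions went from 407 to 0 with the replicate block, with untransformed levels and with robust variance estimation, and to between 0 and 1326 when 1 library was left out. Same-numbered libraries of the groups deviated with correlations of 0.0189, -0.0086 and 0.0149, so the numbers were not taken to pair them. The neighbours' difference kept its sign throughout, between 0.317 points (every position with a value in the library, exact permutation p = 0.4) and 1.75 points (0 counted as a level). With the libraries paired by number it was 1.002 points (exact permutation p = 0.25). Without the ribosomal RNA unit, an alternative chosen after seeing the data, 122 clusters and 4383 positions remained. Taking all rows gave 4643 positions, of which 212 among 95796 complete positions (0.221%) came after the libraries stop lining up. The lack of coverage and of values under 40 limits every level given here, and positions whose true level is below the window in 1 library cannot be seen.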

Other observations

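In the 423642 later rows control replicates 1 and 2 line up with each other (correlation across positions 0.661) and the other 4 libraries line up among themselves (0.678 to 0.742), but not the pair with the 4. The strands of a CpG, 1 base apart by the position column, correlated at 0.680 and 0.730 in control replicates 1 and 2, beside 0.684 and 0.736 in the rows used above. In the other 4 they correlated at 0.448 to 0.485, beside 0.651 to 0.722 above. The description there therefore rests on the pair and is not comparable with the 6-library set. Of 234334 positions valued in both, 15587 (6.65%) lay at 40% to 65% in both, beside 6.78% in the rows used above. Runs of at least 3 such positions with gaps of at most 200 bases numbered 1192. Genes named for those rows were chosen after their values were seen.

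Imprinted genes recur among the largest of those runs. Peg12 had 32 of 52 positions in the window, with means of 53.1% and 50.5% in control replicates 1 and 2. Snurf, the upstream reading frame of the Snrpn transcript at the Prader-Willi region, had 22 of 26 (84.6%), with means of 46.3% and 49.8%. Sgce had 20 of 31 and its divergent neighbour Peg10 had 22 of 52, with means of 54.9% and 59.5% at Peg10. The 20 of Sgce form 1 run at chr6:4747355-4747485 and are also counted for Peg10, so these genes are not separate observations. Nap1l5, a retrogene in an intron of Herc3, had 11 of 23, Mkrn3 9 of 22, Cdkn1c, a growth-restraining kinase inhibitor, 18 of 51, and Igf2, the growth factor cleared by the Igf2r receptor, 6 of 15. Kcnq1ot1 had 0 of 36 and Zim1 0 of 46.

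Runs at genes outside the imprinted list were as large. The germline retrogene Rbmxl2 had 38 of 225 positions of its run in the window, the predicted gene Gm13034 27 of 105, the junctional protein gene Jph3 23 of 66, the overlapping pair Radil and Papolb 21 of 32 and the Wnt regulator Dact3 19 of 29.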
